A study of Mus musculus with 40 samples.

Results

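*Gbp3*, *Gbp7*, *Gbp2*, *Aim2*, *Irf1*, *Irf7*, *Bst2*, *Isg15* and *Ifit3*, 9 interferon-induced genes, were followed through E14.5 foetal liver LSK cells of 4 genotypes, to see whether *Gbp3* and *Aim2* stood higher in *Kat6a* mutant cells by themselves or together with an interferon response. They are 9 of the 26411 genes in the files, and all 9 were among the 13071 genes tested in LSK cells. The 9 genes were selected on measured values of these libraries: *Gbp3* and *Aim2* for their higher level in *Kat6aE/E* than in WT cells, and the other 7 as interferon-induced genes to set beside them. Their values in *Kat6aE/E* versus WT cells are therefore given as a description, and nothing is read from a test of them.

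LSK cells are the lineage marker-negative, SCA-1+, c-KIT+ fraction that holds haematopoietic stem cells and early progenitors, which the sample labels state was sorted from E14.5 foetal livers. The methods of the study describe the RNA source as foetal liver cell isolates without naming a sort for it, so how pure the LSK fraction was is not settled by these sources. The 16 libraries comprise 4 foetuses each of WT, *Kat6bE/E* (*Kat6b* G577E/G577E, *Kat6a* WT), *Kat6aE/E* (*Kat6a* G656E/G656E, *Kat6b* WT) and the double mutant homozygous for both alleles. Both alleles are germline knock-ins on C57BL/6J that exchange 1 glycine for glutamic acid in the acetyl-CoA binding part of KAT6A or KAT6B, so every cell of the foetus carries them. Whole E9.5 embryos served as a second tissue, with 24 libraries of these 4 genotypes and of *Kat6a-/-* (*Kat6a* cfd/cfd) and *Kat6b-/-* (*Kat6b* dec/dec) embryos.

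Interferons are secreted signals of infection. Type I interferon acts through its receptor and the JAK kinases on genes with interferon-stimulated response elements (ISRE) in their promoters. Interferon gamma acts through a receptor of its own on genes with gamma-activated sites (GAS), and part of its effect passes through IRF1. Haematopoietic stem cells respond to both kinds, and SCA-1 itself, the product of *Ly6a*, is an interferon-induced surface protein.

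*Gbp2*, *Gbp3* and *Gbp7* encode guanylate-binding proteins, large GTPases that coat intracellular pathogens and the vacuoles around them. The 3 genes lie in 1 cluster on chromosome 3 of GRCm39, *Gbp7* at chr3:142236044-142255910, *Gbp3* at chr3:142265731-142278979 and *Gbp2* at chr3:142326349-142343779, all on the plus strand. *Aim2* (chr1:173178445-173293930, plus strand) encodes a sensor of cytosolic DNA that assembles an inflammasome. The promoters of *Gbp3* and *Aim2* are shown because the results turn on these genes, that of *Gbp7* because it is the neighbour of *Gbp3*, and those of *Isg15* and *Ifit3* as promoters of widely used type I interferon targets. Each sequence is the RefSeq window from 250 bases before to 50 bases after a transcription start, 5′ to 3′ on the gene's own strand, and capitals mark the ISRE letters GAAANNGAAA or their reverse TTTCNNTTTC.
Gbp3: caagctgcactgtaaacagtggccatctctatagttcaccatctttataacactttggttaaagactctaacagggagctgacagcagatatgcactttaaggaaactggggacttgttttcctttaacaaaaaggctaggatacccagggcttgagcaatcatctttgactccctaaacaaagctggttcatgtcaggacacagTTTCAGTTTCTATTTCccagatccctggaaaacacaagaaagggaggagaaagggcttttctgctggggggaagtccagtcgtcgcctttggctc
Gbp7: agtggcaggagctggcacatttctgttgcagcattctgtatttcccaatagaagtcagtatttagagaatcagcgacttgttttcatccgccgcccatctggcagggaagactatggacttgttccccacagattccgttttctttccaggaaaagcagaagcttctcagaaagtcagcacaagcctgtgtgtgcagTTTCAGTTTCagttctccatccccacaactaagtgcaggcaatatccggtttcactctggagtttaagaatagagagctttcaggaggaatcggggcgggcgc
Aim2: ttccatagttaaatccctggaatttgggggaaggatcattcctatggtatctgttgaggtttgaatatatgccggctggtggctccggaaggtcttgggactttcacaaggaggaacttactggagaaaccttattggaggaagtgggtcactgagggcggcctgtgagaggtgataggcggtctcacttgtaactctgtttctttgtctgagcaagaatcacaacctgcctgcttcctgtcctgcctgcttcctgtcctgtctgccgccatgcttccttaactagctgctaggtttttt
Isg15: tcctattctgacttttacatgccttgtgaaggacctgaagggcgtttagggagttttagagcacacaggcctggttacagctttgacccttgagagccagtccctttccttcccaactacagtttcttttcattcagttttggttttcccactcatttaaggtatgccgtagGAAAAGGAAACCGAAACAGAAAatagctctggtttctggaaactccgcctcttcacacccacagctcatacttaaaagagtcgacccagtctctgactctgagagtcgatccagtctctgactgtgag
Ifit3: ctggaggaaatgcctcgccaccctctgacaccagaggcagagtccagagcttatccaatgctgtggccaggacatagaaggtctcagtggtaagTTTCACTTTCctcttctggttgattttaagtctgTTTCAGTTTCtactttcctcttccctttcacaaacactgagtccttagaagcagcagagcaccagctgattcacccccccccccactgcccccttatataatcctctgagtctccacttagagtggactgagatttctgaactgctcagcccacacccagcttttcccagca
On GRCm38.p6 the windows are chr3:142559794-142560093 (plus strand) for *Gbp3*, chr3:142530086-142530385 (plus) for *Gbp7*, chr1:173420354-173420653 (plus) for *Aim2*, chr4:156200769-156201068 (minus) for *Isg15* and chr19:34583279-34583578 (plus) for *Ifit3*.

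The *Gbp3* promoter held 2 overlapping matches to the ISRE letters, which began 45 and 39 bases before the start (positions -45 and -39). *Gbp7* held 1 match at position -53, *Isg15* held 3 overlapping matches between positions -78 and -66, and *Ifit3* held 2 separate ones at positions -156 and -122. *Gbp2* (1 match) and *Bst2* (2 matches) held the letters too, whereas none were found in these windows of *Aim2*, *Irf1* and *Irf7*, nor at a second annotated start of *Gbp3*. Thus 6 of the 9 genes held the ISRE letters, which were present in 3.44% of all 32851 promoter windows. The GAS letters TTCNNNGAA, counted separately from the ISRE letters, were found in 3 of the 9 genes (*Gbp7*, *Irf1* and *Bst2*) and in 8.30% of all windows. Such matches are letters in a window and not measured binding.

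Total counts were 12270376 to 59216547 per LSK library. The stem and progenitor genes *Kit* (351 to 552 CPM, counts scaled to library size), *Cd34* (349 to 844 CPM) and *Flt3* (117 to 322 CPM) were present in all 16 libraries, whereas *Ly6a*, which encodes the sort marker SCA-1, was low at 0.937 to 10.3 CPM in the libraries labelled LSK. *Kat6a* transcripts (128 to 198 CPM) were present in every genotype, which says nothing about a point mutation. In 4 libraries (*Kat6aE/E* replicate 2 and double mutant replicates 2 to 4) only 12600 to 13683 genes had a count, compared with 16082 to 17647 in the other 12, and their summed level of 11 erythroid markers was 6986 to 15809 CPM, compared with 536 to 5718 CPM. Double mutant replicates 2 to 4 were littermates (litter 1045), whereas replicate 1 shared litter 970 with *Kat6bE/E* replicate 1. In bulk samples fewer cells of a type and less RNA per cell cannot be told apart.

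Per length of transcript, *Bst2* was the highest of the 9 genes in WT cells at 73.7 ± 17.8 RPKM (CPM per kilobase, SD, n = 4). *Irf1* (15.9 ± 3.05 RPKM) and *Aim2* (14.4 ± 1.87 RPKM) followed and did not differ beyond their spread. *Gbp7* had 8.12 ± 1.18 RPKM, *Isg15* 4.87 ± 2.75, *Irf7* 4.23 ± 1.87, *Gbp3* 3.41 ± 0.420 and *Gbp2* 2.37 ± 0.920. *Ifit3* was close to absent at 0.342 ± 0.0903 RPKM. LSK cells without any interferon treatment therefore contained transcripts of all 9 genes, with *Bst2*, which encodes the virus-tethering protein tetherin, far above the rest.

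*Gbp3* was higher in *Kat6aE/E* than in WT cells in every library. The 4 WT libraries contained 10.1, 11.9, 11.4 and 9.04 CPM of *Gbp3*, and the 4 *Kat6aE/E* libraries 20.7, 20.4, 17.8 and 20.3 CPM. These groups did not overlap, and the ratio of their means was 1.86. *Gbp3* was chosen for its higher level in these libraries, and how many of all genes separate in this way was not counted. The model gave a log2 difference of 0.92 ± 0.14 (SE). Within litter 753, the *Kat6aE/E* foetus had 20.7 CPM beside 10.1 to 11.9 CPM in its 3 WT littermates. The 11 libraries with at most 2.39 CPM of *Xist*, the transcript of the inactive X chromosome, gave 17.8 to 20.7 CPM in 3 *Kat6aE/E* and 9.04 to 11.9 CPM in 3 WT libraries.

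*Aim2* differed less and not in every library. It stood at 37.5, 38.2, 40.8 and 29.8 CPM in WT and at 49.9, 31.6, 45.9 and 52.0 CPM in *Kat6aE/E* cells, so that replicate 2 of *Kat6aE/E* lay within the WT range and the other 3 above it. The ratio of means was 1.23, and the log2 difference in the model was 0.39 ± 0.08. Replicate 2 is the *Kat6aE/E* library with few genes detected. In litter 753, *Aim2* was at 49.9 CPM in the *Kat6aE/E* foetus and at 37.5 to 40.8 CPM in the WT foetuses.

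**Figure D1:**
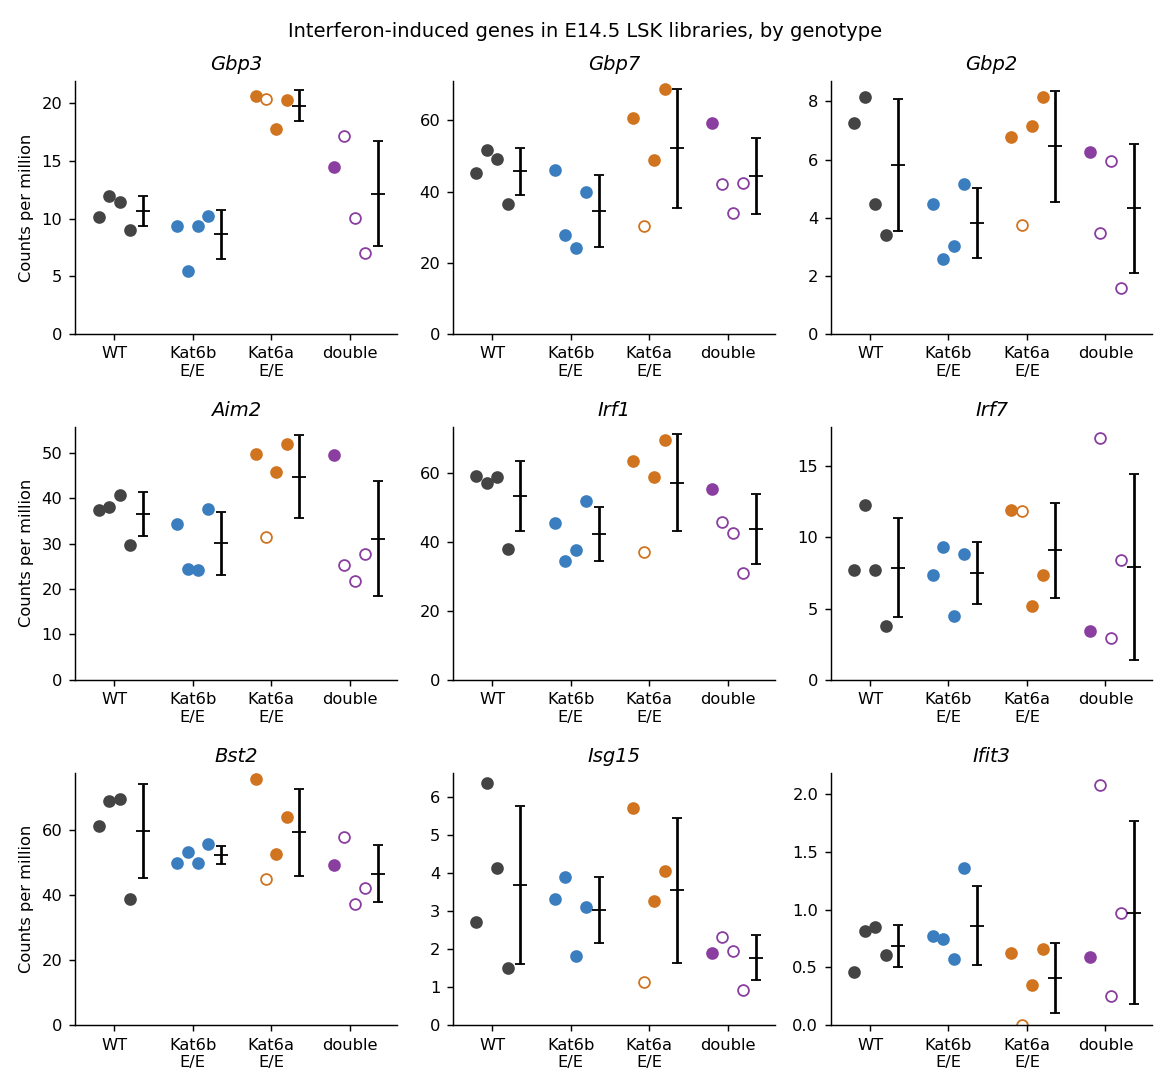
Levels (CPM) of the 9 genes in the 16 LSK libraries (y axes, each from 0), with the 4 genotypes along the x axes ("double" is the double mutant); each point is 1 library, open points are the 4 libraries with few genes detected, and the bar is the mean ± SD of the 4 libraries. *Gbp3* is the panel in which the 4 *Kat6aE/E* points (17.8 to 20.7 CPM) lie clear of all WT points (9.04 to 11.9 CPM).

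In the neighbouring guanylate-binding protein genes the *Kat6aE/E* and WT libraries overlapped. *Gbp7* had 45.1, 51.7, 49.2 and 36.6 CPM in WT and 60.6, 30.3, 48.9 and 68.8 CPM in *Kat6aE/E* cells, a log2 difference of 0.32 ± 0.11. *Gbp2* had 7.25, 8.16, 4.46 and 3.39 CPM in WT and 6.78, 3.74, 7.15 and 8.16 CPM in *Kat6aE/E* cells (0.40 ± 0.22). Of the 3, only *Gbp3*, which was chosen for its level in these libraries, had genotypes that separated, although all 3 differences had the same sign. Of the 66-base words in their transcripts, 1.81% for *Gbp3*, 10.5% for *Gbp7* and 1.12% for *Gbp2* also occurred in another gene.

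The transcription factor genes and classical interferon targets overlapped between *Kat6aE/E* and WT cells. *Irf1*, which encodes a factor that drives *Gbp* and *Aim2* transcription after interferon gamma, was at 59.3, 57.3, 58.9 and 38.1 CPM in WT and at 63.5, 37.1, 59.0 and 69.7 CPM in *Kat6aE/E* cells (log2 difference 0.24 ± 0.09). *Irf7*, the factor that amplifies type I interferon, was at 7.71, 12.3, 7.73 and 3.75 CPM and at 11.9, 11.9, 5.15 and 7.39 CPM (0.46 ± 0.36). *Isg15*, a ubiquitin-like modifier, was at 2.72, 6.36, 4.12 and 1.52 CPM and at 5.71, 1.14, 3.27 and 4.05 CPM (0.44 ± 0.34). For each of them the *Kat6aE/E* libraries lay on both sides of the WT mean.

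*Bst2* was at 61.3, 68.8, 69.4 and 38.7 CPM in WT and at 75.6, 45.0, 52.6 and 63.8 CPM in *Kat6aE/E* cells (0.18 ± 0.13). *Ifit3*, which encodes an antiviral RNA-binding protein, was below 1 CPM in all 8 libraries and had the opposite sign (-0.60 ± 0.38). In *Kat6aE/E* replicate 2 *Ifit3* had 0 counts. Of its 66-base words 26.3% occurred also in *Ifit3b*, so that its counts are uncertain. In all, the log2 difference was positive for 8 of the 9 genes with a median of 0.39, beside a median of -0.01 over all genes tested, and 2 of the 9 genes (*Gbp3* and *Aim2*) were among those called with limma, a count that the choice of genes had fixed, where 1.36% of all genes were called. With edgeR and DESeq2, run without the surrogate variables and litter block of the limma model, none of the 9 was called and 6 of 9 had a positive value. Over all 13071 genes edgeR called 0 and DESeq2 6, so the missing calls say little about the 9.

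The comparison of double mutant with *Kat6bE/E* cells changes the same *Kat6a* allele on a *Kat6b* mutant background and shares no library with *Kat6aE/E* versus WT, although all 16 libraries were fitted together. *Gbp3* was at 9.37, 5.47, 9.40 and 10.3 CPM in *Kat6bE/E* and at 14.46, 17.2, 10.1 and 6.98 CPM in double mutant cells. Double mutant replicates 1 and 2 lay above all *Kat6bE/E* libraries, and the ranges overlapped. The log2 difference was 0.61 ± 0.21 (FDR = 0.115, limma), and without double mutant replicate 1 it was 0.23. *Gbp3* thus had the same sign as in *Kat6aE/E* cells and was not called.

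*Aim2* was at 34.4, 24.3, 24.1 and 37.6 CPM in *Kat6bE/E* and at 49.7, 25.3, 21.7 and 27.8 CPM in double mutant cells. Only double mutant replicate 1 exceeded the *Kat6bE/E* range, and the ratio of means was 1.03. The model, which adjusts for 4 surrogate variables, gave a log2 difference of 0.40 ± 0.11 (FDR = 0.0641, limma). The value was 0.14 without surrogate variables, 0.05 with edgeR and -0.095 without double mutant replicate 1, so the difference rested on that library and on the adjustment. In litter 970 the double mutant and the *Kat6bE/E* foetus had 49.7 and 34.4 CPM of *Aim2* and 14.46 and 9.37 CPM of *Gbp3*.

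None of the 9 genes was called in double mutant versus *Kat6bE/E* cells (0 of 9 in limma, edgeR and DESeq2). Over all 13071 genes limma called 1.48%, edgeR 12 genes and DESeq2 253. An unadjusted p under 0.05 was found for 2721 of all genes in limma, 1589 in edgeR and 1745 in DESeq2. Of the 9 genes 0 had one in edgeR and DESeq2, and 3 in limma. Beside *Gbp3* and *Aim2* this was *Gbp7*, at 45.9, 27.9, 24.1 and 39.8 CPM in *Kat6bE/E* and 59.4, 42.1, 34.1 and 42.3 CPM in double mutant cells, with a log2 difference of 0.49 ± 0.16 (FDR = 0.0997, limma). *Gbp7* was called without the litter block (0.61, FDR = 0.0486, limma) and without double mutant replicate 1 (0.43, FDR = 0.0397, limma). Over all genes these 2 fits called 598 and 2929, beside 193 in the main fit. *Gbp2* (0.40 ± 0.32) and *Irf1* (0.21 ± 0.13) had positive values. *Isg15* (-0.83 ± 0.54), *Ifit3* (-0.70 ± 0.50), *Irf7* (-0.61 ± 0.58) and *Bst2* (-0.12 ± 0.18) had negative values, with FDR between 0.398 and 0.741 (limma). *Isg15* was at 3.33, 3.88, 1.82 and 3.10 CPM in *Kat6bE/E* and at 1.89, 2.33, 1.96 and 0.931 CPM in double mutant cells. In limma the guanylate-binding protein genes and *Aim2* thus had positive values, and *Irf7*, *Isg15*, *Ifit3* and *Bst2* negative ones, none past the threshold. With edgeR and DESeq2 7 of the 9 genes were positive, beside 5 in limma. The ratio of double mutant to *Kat6bE/E* means was 1.06 for *Irf7* and 1.13 for *Ifit3*. Over all settings the log2 difference ran from -1.35 to 0.09 for *Irf7* and from -0.87 to 0.56 for *Ifit3*. Their signs thus depended on the model and its adjustments, while *Isg15* and *Bst2* stayed negative.

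**Figure D2:**
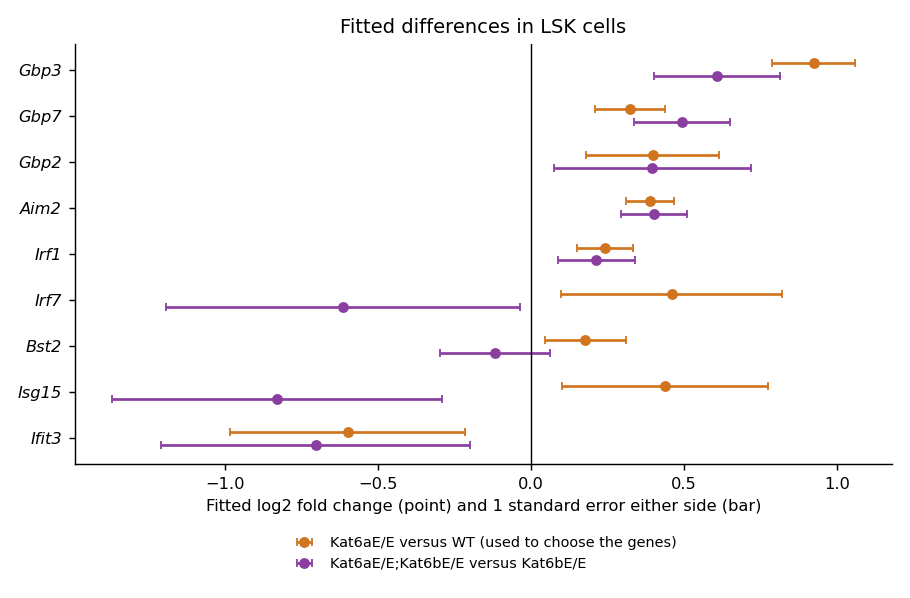
Fitted log2 fold change (x axis, points) of the 9 genes (y axis) in *Kat6aE/E* versus WT (orange, used to choose the genes) and in double mutant versus *Kat6bE/E* (purple) LSK cells, with 1 standard error either side; 8 libraries per comparison. *Gbp3*, *Gbp7*, *Gbp2*, *Aim2* and *Irf1* are above 0 in both, and *Irf7*, *Bst2* and *Isg15* are above 0 in the first and below 0 in the second.

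The *Kat6b* mutation by itself moved none of the 9 genes past the threshold. In *Kat6bE/E* versus WT cells 0 of 9 were called and 0 had an unadjusted p under 0.05 in limma, edgeR or DESeq2, and 0% of all genes were called. *Gbp3* had a log2 difference of -0.16 ± 0.19 and *Aim2* of -0.03 ± 0.10. Double mutant versus WT cells, which share the WT libraries with that comparison, gave 0.45 ± 0.22 for *Gbp3* (FDR = 0.734, limma) and 0.37 ± 0.12 for *Aim2* (FDR = 0.509, limma), with 0 of 9 called and 0% of all genes called. An unadjusted p under 0.05 was found for 1 of the 9 in limma and DESeq2 and for 0 in edgeR, beside 896, 2424 and 2109 of all 13071 genes. The fitted value of *Aim2* and its levels had opposite signs here: the ratio of double mutant to WT means was 0.851, and over all alternative settings the log2 difference ran from -0.23 to 0.41.

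All 4 double mutant libraries (6.98 to 17.2 CPM) had less *Gbp3* than all 4 *Kat6aE/E* libraries (17.8 to 20.7 CPM). How many of all genes separate in this way was not counted, and double mutant replicates 2 to 4 are littermates with few genes detected. The log2 difference of *Gbp3* was -0.48 ± 0.21 (FDR = 1.00, limma), in a comparison where limma called 0 of the 9 genes and 0% of all genes. An unadjusted p under 0.05 was found for 1 of the 9 in limma (197 of all 13071 genes). In edgeR and DESeq2 2 of the 9 had one (2037 and 2354 of all genes). Without double mutant replicate 1, which leaves double mutants of 1 litter, both *Gbp3* (-0.79, FDR = 0.0250) and *Aim2* (-0.48, FDR = 0.0184) were called by limma, in a fit that called 1998 genes. The same *Kat6aE/E* libraries had been used to choose both genes for high levels, so lower values in other cells were favoured in advance. Nothing is read from these tests of the 2 genes. The difference of the *Kat6a* effect between the 2 *Kat6b* backgrounds was tested as an interaction, which called 0 of the 9 genes and 0% of all genes, with 0 of the 9 at an unadjusted p under 0.05 in limma, edgeR or DESeq2. Its value was -0.32 ± 0.25 for *Gbp3* and 0.01 ± 0.14 for *Aim2*, and the latter became -0.44 (FDR = 0.0435, limma) without double mutant replicate 1, where 1436 genes were called. The interaction contains the contrast used to choose both genes, so nothing is read from its tests of them either. The interaction furthest from 0 among the 9 genes was that of *Isg15*, at -1.27 ± 0.64 (FDR = 0.891, limma).

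Interferon genes themselves were nearly silent. Of 21 ligand genes in the files, 15 had no count in any LSK library, and the other 6 had 43 counts in all over 16 libraries, at most 5 in one library. A count of 0 allows up to 3 counts per library, by counting error only. The 9 receptor and kinase genes tested included none that was called in *Kat6aE/E* versus WT or in double mutant versus *Kat6bE/E* cells in limma, edgeR or DESeq2, with medians of 0.03 and 0.02. In limma 2 and 1 of them had an unadjusted p under 0.05, beside 1639 and 2721 of all 13071 genes.

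A list of 56 further type I interferon targets gave 1 called gene in *Kat6aE/E* versus WT cells (1.79%, beside 1.36% of all genes) and 1 in double mutant versus *Kat6bE/E* cells (1.79%, beside 1.48%). With edgeR 0 of the 56 were called in either comparison, and with DESeq2 0 in the first and 1, lower, in the second. Over all 13071 genes edgeR called 0 and 12 in the 2 comparisons, and DESeq2 6 and 253. An unadjusted p under 0.05 in limma was found for 17 of the 56 in the first, beside 1639 of 13071 genes, and for 12 in the second, beside 2721 of 13071. The gene called by limma in both was *Ifitm1*, which encodes a membrane protein that blocks virus entry. *Ifitm1* was at 66.8, 61.1, 80.1 and 40.7 CPM in WT and 124, 68.0, 92.2 and 128 CPM in *Kat6aE/E* cells. It was at 47.6, 34.0, 38.4 and 56.8 CPM in *Kat6bE/E* and 96.1, 58.6, 79.3 and 45.7 CPM in double mutant cells. The log2 differences were 0.90 ± 0.14 and 0.92 ± 0.19 (FDR = 0.0150 and 0.0423, limma), and the libraries overlapped in both comparisons. Leaving out 1 library ended the call of *Ifitm1* in 2 of 16 fits in the first comparison and in 10 of 16 in the second.

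The type I list had mostly positive values in *Kat6aE/E* versus WT cells. In double mutant versus *Kat6bE/E* cells its share of positive values was near that of all genes, and the difference was not tested for the list. In *Kat6aE/E* versus WT cells 49 of the 56 genes had a positive log2 difference (all genes: 45.9%), with a median of 0.25 (all genes: -0.01). In double mutant versus *Kat6bE/E* cells 23 of 56 had one (all genes: 43.2%), with a median of -0.12 (all genes: -0.04). The first median fell to 0.08 without WT replicate 4 and to 0.11 without *Kat6aE/E* replicate 2, and was 0.10 with edgeR and DESeq2. It was 0.12 to 0.13 when any of the 4 double mutant libraries was left out. By library, the median difference of the list from the WT mean ranged from -0.60 to 0.43 in WT and from -0.02 to 0.38 in *Kat6aE/E* cells, so the genotypes overlapped.

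The 5 type I targets highest in WT cells, *Ly6e*, *Trim25*, *Ifitm2*, *Adar* and *Helz2*, had log2 differences between 0.03 and 0.26 in *Kat6aE/E* versus WT cells, and none was called. *Irf9*, which encodes a factor of the type I pathway, had -0.14 ± 0.10 and was not called either.

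Genes closer in function to *Gbp3* gave 0 or 1 call per list. Among 5 other guanylate-binding protein genes tested, 0 were called in either comparison in limma, edgeR or DESeq2, with medians of 0.50 and 0.31. In limma 1 of the 5 had an unadjusted p under 0.05 in *Kat6aE/E* versus WT cells and 0 in the other comparison, beside 1639 and 2721 of all 13071 genes. Of 9 immunity-related GTPases, which act beside guanylate-binding proteins on pathogen vacuoles, all 9 had positive values in *Kat6aE/E* versus WT cells (median 0.49). Over all genes 45.9% had one. In limma 4 of the 9 had an unadjusted p under 0.05, beside 1639 of all 13071 genes. Of the 9, 1 was called, *Tgtp1* at 1.33 ± 0.30, where 1.36% of all genes were called. With edgeR and DESeq2 0 of the 9 were called, beside 0 and 6 of all genes. *Tgtp1* lost its call in 15 of the 16 fits that left out 1 library, and its value fell to 0.76 without WT replicate 4. *Tgtp1* and its near-copy *Tgtp2* (1.52 ± 0.45) share sequence, and counts may be split between them. In double mutant versus *Kat6bE/E* cells 6 of the 9 were positive (median 0.18), 0 were called in limma, edgeR or DESeq2 with 1 at an unadjusted p under 0.05 in each, and *Tgtp1* had 0.54 ± 0.44.

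Of 10 other AIM2-like receptor genes, 0 were called in *Kat6aE/E* versus WT cells in limma, edgeR or DESeq2, with 3 at an unadjusted p under 0.05 in limma (medians 0.22 and 0.19 in the 2 comparisons). In double mutant versus *Kat6bE/E* cells 0 were called in limma and edgeR and 1 in DESeq2, and 3 had an unadjusted p under 0.05 in limma. Of 25 interferon gamma targets, 0 were called in limma in either comparison (medians 0.19 and 0.04), with 8 and 2 at an unadjusted p under 0.05, and 2 were called lower in the second by DESeq2. Of 10 negative regulators of interferon signalling 0 were called in either comparison in limma, edgeR or DESeq2, with 1 and 3 at an unadjusted p under 0.05 in limma. Over all 13071 genes 1639 and 2721 had such a p in limma in the 2 comparisons.

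**Figure D3:**
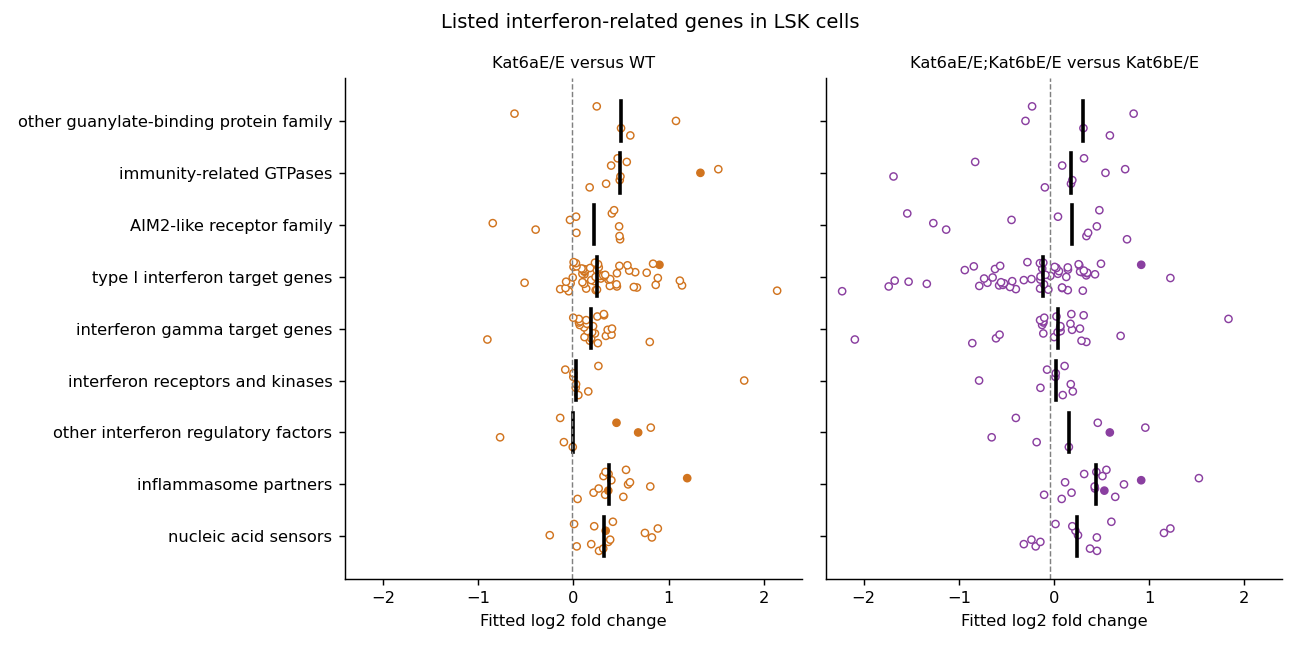
Fitted log2 fold change (x axis) of listed interferon-related genes other than the 9 (y axis, by list) in *Kat6aE/E* versus WT (left) and double mutant versus *Kat6bE/E* (right) LSK cells; each point is 1 gene, filled where FDR was under 0.05, black bars are list medians and the dashed line is the median of all genes tested. Filled points are rare, and the type I list has a median of 0.25 on the left and -0.12 on the right.

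Calls in both comparisons were found among partners of the inflammasome and interferon regulatory factors of myeloid cells. Of 15 inflammasome partners 2 were called higher in each comparison (13.3%, beside 1.36% and 1.48% of all genes), with medians of 0.37 and 0.44. *Gsdmd*, which encodes the pore-forming protein cleaved by inflammasomes, was one of them in both, with log2 differences of 0.37 ± 0.08 and 0.53 ± 0.11. The second value rested on double mutant replicate 1 and was 0.037 without it, and the call of *Gsdmd* was lost in 8 of 16 fits that left out 1 library in each comparison. *Nlrp10* was called in the first and *Nlrc4*, a sensor of bacterial proteins, in the second, and these calls were lost in 11 and 9 of 16 such fits. Without WT replicate 4 *Nlrp10* was at 0.78, and without double mutant replicate 1 *Nlrc4* was at 0.50. *Irf5* rose in both (0.68 ± 0.08 and 0.59 ± 0.11; FDR = 0.00188 and 0.0268, limma), and *Irf8*, a regulator of monocyte and dendritic cell development, in the first (0.45 ± 0.09). Without *Kat6aE/E* replicate 1 neither was called in the first comparison, at 0.58 for *Irf5* and 0.32 for *Irf8*, and the call of *Irf5* in the second was lost in 5 of 16 fits that left out 1 library. *Irf8* had a like value of 0.46 ± 0.12 in the second (FDR = 0.0643, limma). *Unc93b1*, which carries nucleic acid-sensing Toll-like receptors to endosomes, was the 1 called gene of 14 nucleic acid sensors in the first comparison, and 0 were called in the second. In the second 6 of the 14 had an unadjusted p under 0.05 in limma, beside 2721 of all 13071 genes. With edgeR 0 genes of these lists were called in either comparison, and with DESeq2 1 inflammasome partner was called in the second. Over all genes edgeR called 0 and 12 in the 2 comparisons, and DESeq2 6 and 253.

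Markers of several cell types moved beside these genes. Of 14 monocyte and macrophage markers, limma called 3 higher in *Kat6aE/E* versus WT cells (*Lyz2*, *Csf1r* and *Ccr2*; 21.4%, beside 1.36% of all genes) and 3 in double mutant versus *Kat6bE/E* cells (*Lyz2*, *Itgam* and *Ccr2*; 21.4%, beside 1.48%). In the first comparison edgeR and DESeq2 called 0 of the 14 (0 and 6 of all genes), and in the second 2 and 3 (12 and 253 of all genes). The list was split in sign, with 7 and 8 of 14 positive and medians of 0.03 and 0.16. The macrophage complement genes *C1qa* (-0.69 ± 0.30), *C1qb* (-0.82 ± 0.33) and *C1qc* (-0.86 ± 0.34), *Cd14* (-0.96 ± 0.51), *Vcam1* (-0.71 ± 0.33) and *Adgre1* (-0.40 ± 0.24) had negative values in the first comparison, none called, and negative values in the second too. The summed level of all 14 markers was 389 to 466 CPM in WT, 455 to 584 CPM in *Kat6aE/E*, 332 to 452 CPM in *Kat6bE/E* and 463 to 937 CPM in double mutant cells. Of the 14 markers *Cd14* was at 0 in 3 libraries, and the others had counts in all 16. Among markers of other cells, limma called the mast cell gene *Cpa3* (-1.04 ± 0.11 and -1.001 ± 0.16) lower in both comparisons, 1 of 7 tested. The megakaryocyte gene *Itga2b* (-0.78 ± 0.14 and -1.21 ± 0.19), 1 of 6, was called lower in both too. In the first, *Rag1* (-1.46 ± 0.25) was called lower of 7 B lymphoid genes and *Ccr9* (-1.24 ± 0.24) of 9 dendritic cell genes. Over all genes 1.36% and 1.48% were called. In the first comparison the dendritic cell genes *Cd74*, *Itgax*, *H2-Aa*, *Cd209a* and *Siglech* had positive values, and *Zbtb46*, *Clec9a* and *Tcf4* negative ones. In the second, *Prss34* and *Mcpt8* of the mast cell list had positive values and its other tested genes negative ones. In the second comparison DESeq2 called 5 of 10 neutrophil markers higher and 4 of 7 B lymphoid markers lower, beside 253 of all 13071 genes. There limma and edgeR called 0 of each, beside 193 and 12 of all genes. The part of these markers in the values of *Gbp3*, *Aim2*, *Irf5*, *Irf8* and *Gsdmd* was not tested.

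Over the 16 libraries *Aim2* followed the progenitor genes more closely than *Gbp3* did. The correlation of log2 levels of *Aim2* with *Cd34* was r = 0.91 (Spearman's rho 0.86) and with *Flt3* r = 0.91 (rho 0.87), and that of *Irf1* with *Cd34* was r = 0.91 (rho 0.87). For *Gbp3* with *Cd34* it was r = 0.52 (rho 0.57). The libraries low in *Aim2* (WT replicate 4, *Kat6bE/E* replicates 2 and 3, *Kat6aE/E* replicate 2 and double mutant replicates 2 to 4) were those with *Cd34* between 349 and 475 CPM, compared with 566 to 844 CPM in the other 9. These correlations are descriptions over 16 libraries that share genotype, litter and RNA amount, and the part of cell composition in *Aim2* was not tested.

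**Figure D4:**
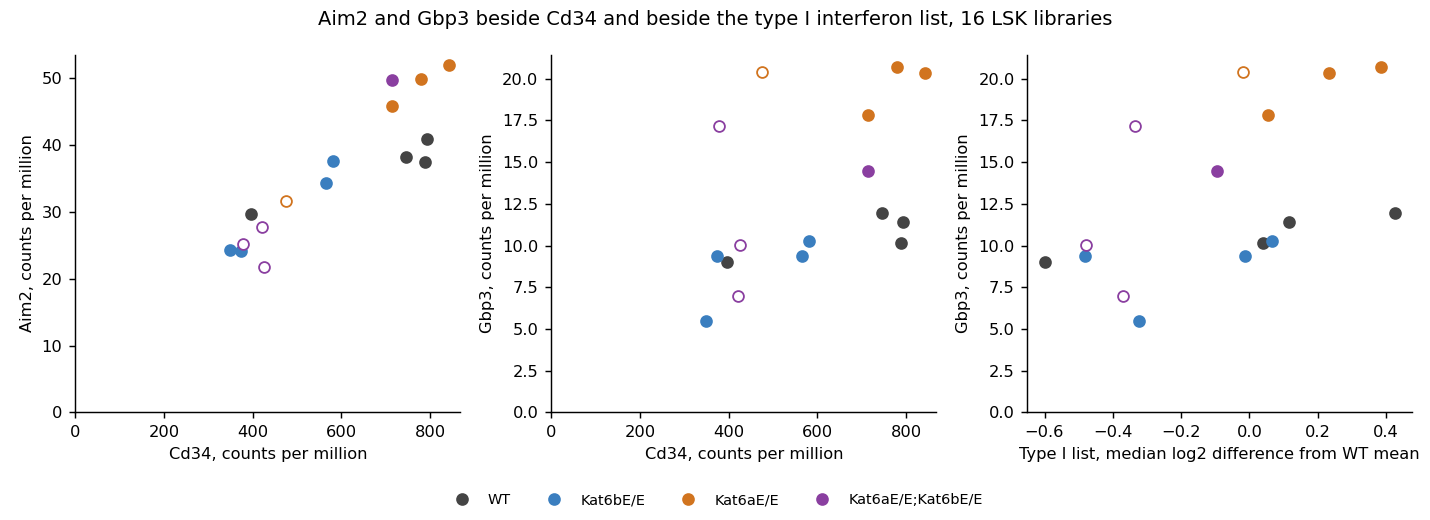
Each point is 1 of 16 LSK libraries, coloured by genotype, with open points for the 4 libraries with few genes detected: *Aim2* against *Cd34* (left) and *Gbp3* against *Cd34* (middle), all in CPM, and *Gbp3* against the median log2 difference of the type I list from the WT mean (right). *Aim2* is higher where *Cd34* is higher across genotypes, whereas the *Kat6aE/E* points for *Gbp3* stay between 17.8 and 20.7 CPM while *Cd34* runs from 475 to 844 CPM.

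Among the 9 genes, the pattern of *Aim2* was most like that of *Gbp7* (r = 0.85) and *Irf1* (r = 0.83), that of *Isg15* was most like *Bst2* (r = 0.82), and the highest correlation of *Gbp3* with another of the 9 was that with *Irf1* (r = 0.61). Over all genes tested, the 5 genes most like *Gbp3* by Pearson correlation of log2 CPM were *Dglucy* (r = 0.91), *Slfn9* (0.87), *Hsd17b11* (0.86), *Map4k1* (0.86) and *Ifit1bl1* (0.86). Those most like *Aim2* were *Rel* (0.97), *Slc28a2* (0.97), *Dock10* (0.97), *Lbh* (0.96) and *Gng2* (0.96). The 2 sets of 5 had no gene in common.

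In whole E9.5 embryos 4 of the 9 genes (*Aim2*, *Bst2*, *Gbp7* and *Irf1*) passed the filter on low counts. *Aim2* had 5.50 to 7.93 CPM over the 24 embryos, *Irf1* 2.57 to 6.71 CPM, *Bst2* 1.59 to 4.15 CPM and *Gbp7* 0.398 to 2.06 CPM. *Gbp3* had at most 0.432 CPM, which was 6 counts or fewer per library. *Aim2* stood at 7.27, 7.55, 7.02 and 6.91 CPM in WT, at 7.54, 7.50, 5.71 and 7.52 CPM in *Kat6aE/E* and at 7.50, 7.64, 7.04 and 7.26 CPM in *Kat6a-/-* embryos, so that these genotypes overlapped.

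None of the 4 genes tested at E9.5 was called in *Kat6aE/E*, double mutant or *Kat6a-/-* versus WT embryos in limma, edgeR or DESeq2, where 0.275%, 2.91% and 2.64% of all genes were called. The log2 differences of *Aim2* were -0.07 ± 0.11, -0.05 ± 0.12 and 0.01 ± 0.12. In limma 1 of the 4, *Gbp7* in the double mutant (-0.80 ± 0.34; FDR = 0.207, limma), had an unadjusted p under 0.05, beside 2581 of all 14183 genes. In edgeR and DESeq2 1 of the 4 had one in *Kat6a-/-* embryos, beside 1950 and 1908 of all genes. *Gbp7* thus had opposite signs in double mutant LSK cells and double mutant embryos, each set against another control genotype.

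Of the 9 genes 6 overlap another gene on GRCm39, among them *Aim2* with *Cadm3* and *Irf7* with *Phrf1* on the opposite strand. Because the kit does not mark strand, reads from shared exons of such pairs cannot be told apart.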

How the data were processed

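Bulk RNA-sequencing was analysed from the per-gene counts that were deposited: 16 libraries from LSK cells of single E14.5 foetuses and 24 from whole E9.5 embryos. The authors aligned read pairs to mm39 with Rsubread and counted them over RefSeq genes with featureCounts, and the kit (TruSeq RNA v2) does not mark strand. The counts were used as deposited.

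The model followed the methods of the study. Y-linked genes and those that do not code for protein were dropped, low counts were removed with filterByExpr, and libraries were scaled by TMM. With 4 surrogate variables (wsva), voomLmFit was run (edgeR 4.0.16, limma 3.58.1, R 4.3.3) with litter as a random block (litter correlation 0.331 in LSK cells and 0.107 at E9.5) and robust empirical Bayes moderation. All 16 LSK libraries entered 1 fit. P-values were adjusted by Benjamini-Hochberg across the genes tested in each comparison (FDR), and genes under 0.05 were called. CPM are counts scaled to library size after TMM, and RPKM are CPM per kilobase of the deposited gene length.

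The 9 genes and all gene lists were chosen with earlier results of these data known. Other genes are named where they were in a non-marker list and called in either *Kat6a* contrast, as the 5 type I targets highest in WT, or as the 5 most correlated with *Gbp3* or *Aim2*. Further genes were named after their values were seen. Alternatives were 0, 2 or 6 surrogate variables, omission of the litter block, edgeR quasi-likelihood, DESeq2 1.42.0, scaling by DESeq2 size factors, testing without a filter on low counts, a replicate block and omission of each library. Both edgeR and DESeq2 were run with 0 surrogate variables and no litter block, so they differ from the limma model in more than the test. The replicate block took the place of the litter block. The model was tested on simulated data for the double mutant versus *Kat6bE/E* comparison over 12935 genes. It recovered 60% of genes changed by 1 and 11% of those changed by 0.5 on the log2 scale, with 0 false calls. The simulated libraries were drawn independently, without litter correlation or other shared structure, so these figures do not carry over to the real libraries. Promoters came from a RefSeq table on GRCm38.p6 and positions from GENCODE vM39 on GRCm39. Libraries of a genotype were from separate foetuses, some of them littermates.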

Additional observations from a re-analysis of the deposited data

Results flagged for a closer look

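Within the groups of 4 LSK libraries, 36 combinations of gene and genotype were examined for a library far from the other 3, and 2 stood out, where chance gives about 1 in 20. *Gbp3* in *Kat6aE/E* replicate 3 was at 17.8 CPM, below the 20.3 to 20.7 CPM of the other 3 *Kat6aE/E* libraries and still above all WT libraries. *Irf1* in WT replicate 4 was at 38.1 CPM, below the 57.3 to 59.3 CPM of the other 3 WT libraries, which were littermates of each other and not of replicate 4.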

How the results depend on the processing

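The log2 difference of *Gbp3* between double mutant and *Kat6bE/E* cells kept its sign and was called under none of the alternatives run (0.23 to 0.68 when 1 library was left out). That of *Aim2* was called without the litter block (0.44), which with *Gbp7* made 2 of the 9 genes called, where 598 of all genes were. It ran from -0.095 (without double mutant replicate 1) to 0.46 when 1 library was left out, with 0 to 1 of the 9 genes called. In *Kat6bE/E* versus WT, double mutant versus WT and the E9.5 comparisons 0 of the genes were called under each alternative run.

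Counts of calls over all genes moved more, and the cause was not tested. In *Kat6aE/E* versus WT cells 178 genes were called, and 3, 50 and 33 with 0 surrogate variables, 2 surrogate variables and no litter block, 0 with edgeR, 6 with DESeq2 and 1 to 364 when 1 library was left out. In double mutant versus *Kat6bE/E* cells 193 were called, and 0 and 366 with 0 and 2 surrogate variables, 598 without the litter block, 12 with edgeR, 253 with DESeq2, 41 without a filter and 0 to 2929 when 1 library was left out (2929 without double mutant replicate 1). Double mutant versus WT gave 0, and 1, 2 and 22 with 0, 2 and 6 surrogate variables, 39 with edgeR, 262 with DESeq2 and 0 to 2170 when 1 library was left out. *Kat6bE/E* versus WT gave 0 (0 to 96), double mutant versus *Kat6aE/E* 0 (62 with DESeq2, 0 to 1998) and the interaction 0 (0 to 1436).

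Of the other listed interferon-induced genes 2 were called in *Kat6aE/E* versus WT, and 0, 1 and 4 with 0, 2 and 6 surrogate variables, 0 without the litter block, 0 with edgeR, 0 with DESeq2, 1 without a filter and 0 to 7 when 1 library was left out. In double mutant versus *Kat6bE/E* 1 was called, and 0, 2 and 3 with 0, 2 and 6 surrogate variables, 3 without the litter block, 0 with edgeR, 4 with DESeq2, 0 without a filter and 0 to 22 when 1 library was left out.

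With a replicate block, *Kat6aE/E* versus WT gave 3 calls over all genes and 0 among the other interferon-induced genes, and double mutant versus *Kat6bE/E* gave 0 and 0. Deviations of same-numbered libraries had a median correlation of 0.004 (-0.43 to 0.35 over 24 pairs), so that the numbers did not pair the samples.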
